A study of Mus musculus with 14 samples.

Results

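The genes described here are 10 genes of keratinocytes, the cells that build the outer layer of the skin, measured in RNA of whole skeletal muscle of newborn mice, with brain as the background. They are Krt5, Krt14, Krt15 and Trp63 of the basal layer, Krt1, Krt10, Lor, Flg and Ivl of the differentiated layers, and Krt6a, which is known from wounded skin. They were taken as every probe of these symbols in the platform annotation, which gave 16 of 30626 named probes, and 10 of 21893 genes. The genes were picked because their levels varied between the muscle arrays of knockout mice, so the comparison of knockout with wild-type muscle is described here without a test. Levels in wild-type muscle against wild-type brain, and in knockout against wild-type brain, did not enter that rule and were tested. Earlier results of these data were known when the genes and the tests were chosen.

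RNA came from mice at 1 day of age, untreated and of background strain C57BL6. The wild-type (WT) groups had 3 muscle and 4 brain samples. The Cugbp1 knockout (KO) groups likewise had 3 muscle and 4 brain samples, from mice made with BayGenomic embryonic stem cells in which a trap vector sits ahead of the start codon of Cugbp1, an RNA-binding protein gene now named Celf1. The labels name neither the muscle nor the way it was dissected. Nothing in the labels says whether the RNA of a sample came from 1 or several mice, so p-values measure the spread between these samples.

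Each sample was hybridised to 1 one-colour (Cy3) Agilent array. Celf1 served as a check of the labels, and its highest intensity on a KO array (758 in muscle, 2086 in brain) lay under its lowest on a WT array of the same tissue (3099 and 4854). The tissue labels held: 15 of 15 skeletal muscle genes were higher in WT muscle than in WT brain by limma at adjusted p under 0.05, and 11 of 12 brain genes were lower. Values are quoted as deposited intensities, array by array. Folds and differences use the level, which is log2 intensity minus the 75th percentile of the named probes of the same array (883 to 1398 in intensity). The lowest intensity of an array was 2.04 to 3.51, and an intensity under 2 times that value is called near the floor; 22.2% to 30.4% of an array's probes lay there. Intensities of different probes cannot be set against each other.

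As background, basal keratinocytes sit on the basement membrane, divide and make the partner keratins Krt5 and Krt14. Cells that leave this layer replace them with Krt1 and Krt10, and then make the proteins that form the cornified envelope, the tough shell of dead surface cells. Skeletal muscle and brain are not known as sites of this programme. In bulk tissue, more cells of a type and more RNA per cell cannot be told apart.

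Promoter sequences were on hand for 6 of the 10 genes in RefSeq's annotation of GRCm38.p6. They are shown for 4 of them, Krt5 as a basal keratin, and Krt10, Lor and Flg from the differentiated layers. Each runs 5′ to 3′ on the gene's strand, from 250 bases before to 50 bases after the annotated start, and lies at chr15:101712856-101713155 (minus strand) for Krt5, chr11:99389315-99389614 (minus strand) for Krt10, chr3:92083093-92083392 (minus strand) for Lor and chr3:93273296-93273595 (plus strand) for Flg. Capitals mark the TATA box letters TATAAA and the AP-1 letters TGANTCA, searched on both strands with no overlap between them.
Krt5: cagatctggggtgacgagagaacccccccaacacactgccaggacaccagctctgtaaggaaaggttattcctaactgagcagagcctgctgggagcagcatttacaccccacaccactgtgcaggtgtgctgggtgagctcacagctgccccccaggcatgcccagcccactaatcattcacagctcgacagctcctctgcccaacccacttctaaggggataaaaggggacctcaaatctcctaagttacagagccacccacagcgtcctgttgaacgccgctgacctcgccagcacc
Krt10: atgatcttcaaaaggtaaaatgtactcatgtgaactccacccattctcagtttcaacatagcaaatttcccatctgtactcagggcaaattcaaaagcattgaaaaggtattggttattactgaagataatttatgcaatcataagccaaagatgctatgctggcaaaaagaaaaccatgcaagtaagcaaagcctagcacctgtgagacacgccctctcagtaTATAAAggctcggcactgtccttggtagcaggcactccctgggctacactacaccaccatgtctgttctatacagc
Lor: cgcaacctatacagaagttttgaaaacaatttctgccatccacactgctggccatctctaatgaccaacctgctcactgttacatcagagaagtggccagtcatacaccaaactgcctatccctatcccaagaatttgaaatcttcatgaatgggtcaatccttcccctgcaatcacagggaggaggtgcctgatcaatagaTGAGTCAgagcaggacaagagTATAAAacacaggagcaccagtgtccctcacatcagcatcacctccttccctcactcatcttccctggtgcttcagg
Flg: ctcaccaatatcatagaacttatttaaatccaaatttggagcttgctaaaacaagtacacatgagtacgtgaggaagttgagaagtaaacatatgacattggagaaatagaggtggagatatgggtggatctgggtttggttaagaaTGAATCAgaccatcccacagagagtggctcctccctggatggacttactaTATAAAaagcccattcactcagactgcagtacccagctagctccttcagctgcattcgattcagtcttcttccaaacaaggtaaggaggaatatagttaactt
TATAAA occurred in 13.6% and TGANTCA in 7.81% of 32851 promoter windows of the same 300 bases. The Krt10 window held TATAAA at position -26 from the start. The Lor window held TATAAA at -27 and TGANTCA at -48, and the Flg window TATAAA at -53 and TGANTCA at -103. The Krt5 window held neither set of letters. Of the windows not shown, that of Ivl held TATAAA at -29 and TGANTCA at -116, and that of Krt14 held neither. Matches describe the letters only, since binding was not measured.

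The basal keratins separated the 3 KO muscle arrays from each other. Krt5, the type II keratin of basal cells, read 66.2, 94.9 and 107 on WT muscle arrays 1, 2 and 3, and 926, 1454 and 86.6 on KO muscle arrays 1, 2 and 3 (probe A_51_P186856). KO arrays 1 and 2 lay far above all WT arrays and KO array 3 lay among them. Its other probe, A_66_P116076, was near the floor on the 3 WT arrays and on KO array 3, and read 9.19 and 27.8 on KO arrays 1 and 2. Krt15, a type I keratin of basal cells and of the hair follicle bulge, read 5.77, 8.51 and 3.34 on the WT and 130, 310 and 2.53 on the KO arrays. Its order over the KO arrays was that of Krt5, and WT array 3 and KO array 3 were near the floor.

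Krt14, the partner of Krt5, read 48.1, 61.2 and 59.9 on the WT muscle arrays and 143, 490 and 70.7 on the KO arrays. It was the only 1 of the 10 genes whose KO arrays all lay above all WT arrays, and the margin of KO array 3 was small. Over all genes, 1.86% did not overlap in that direction; these muscle contrasts chose the genes, so nothing is read from the count. The lower direction held 0 of the 10, beside 2.09% of all genes.

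Trp63 encodes p63, the transcription factor that keeps basal cells in their state, and its 4 probes did not move together. Probe A_51_P216550 read 290, 177 and 165 on the WT muscle arrays and 236, 1191 and 113 on the KO arrays, so that KO array 2 alone stood out. Probe A_52_P338796 had the same highest array at lower readings, from 11 to 21.5 on the WT and 11.9, 35.8 and 16.7 on the KO arrays. Probe A_55_P1952056 read 82, 210 and 306 on the WT and 142, 265 and 298 on the KO arrays, with the groups overlapping. The brightest probe, A_55_P2161055, stayed between 3179 and 4843 on all 6 muscle arrays and was highest on KO array 3. The first and the last of these probes ran opposite to each other over the 6 muscle arrays (Pearson r = -0.79, n = 6). Which transcripts each probe reads was not analysed here.

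**Figure D1:**
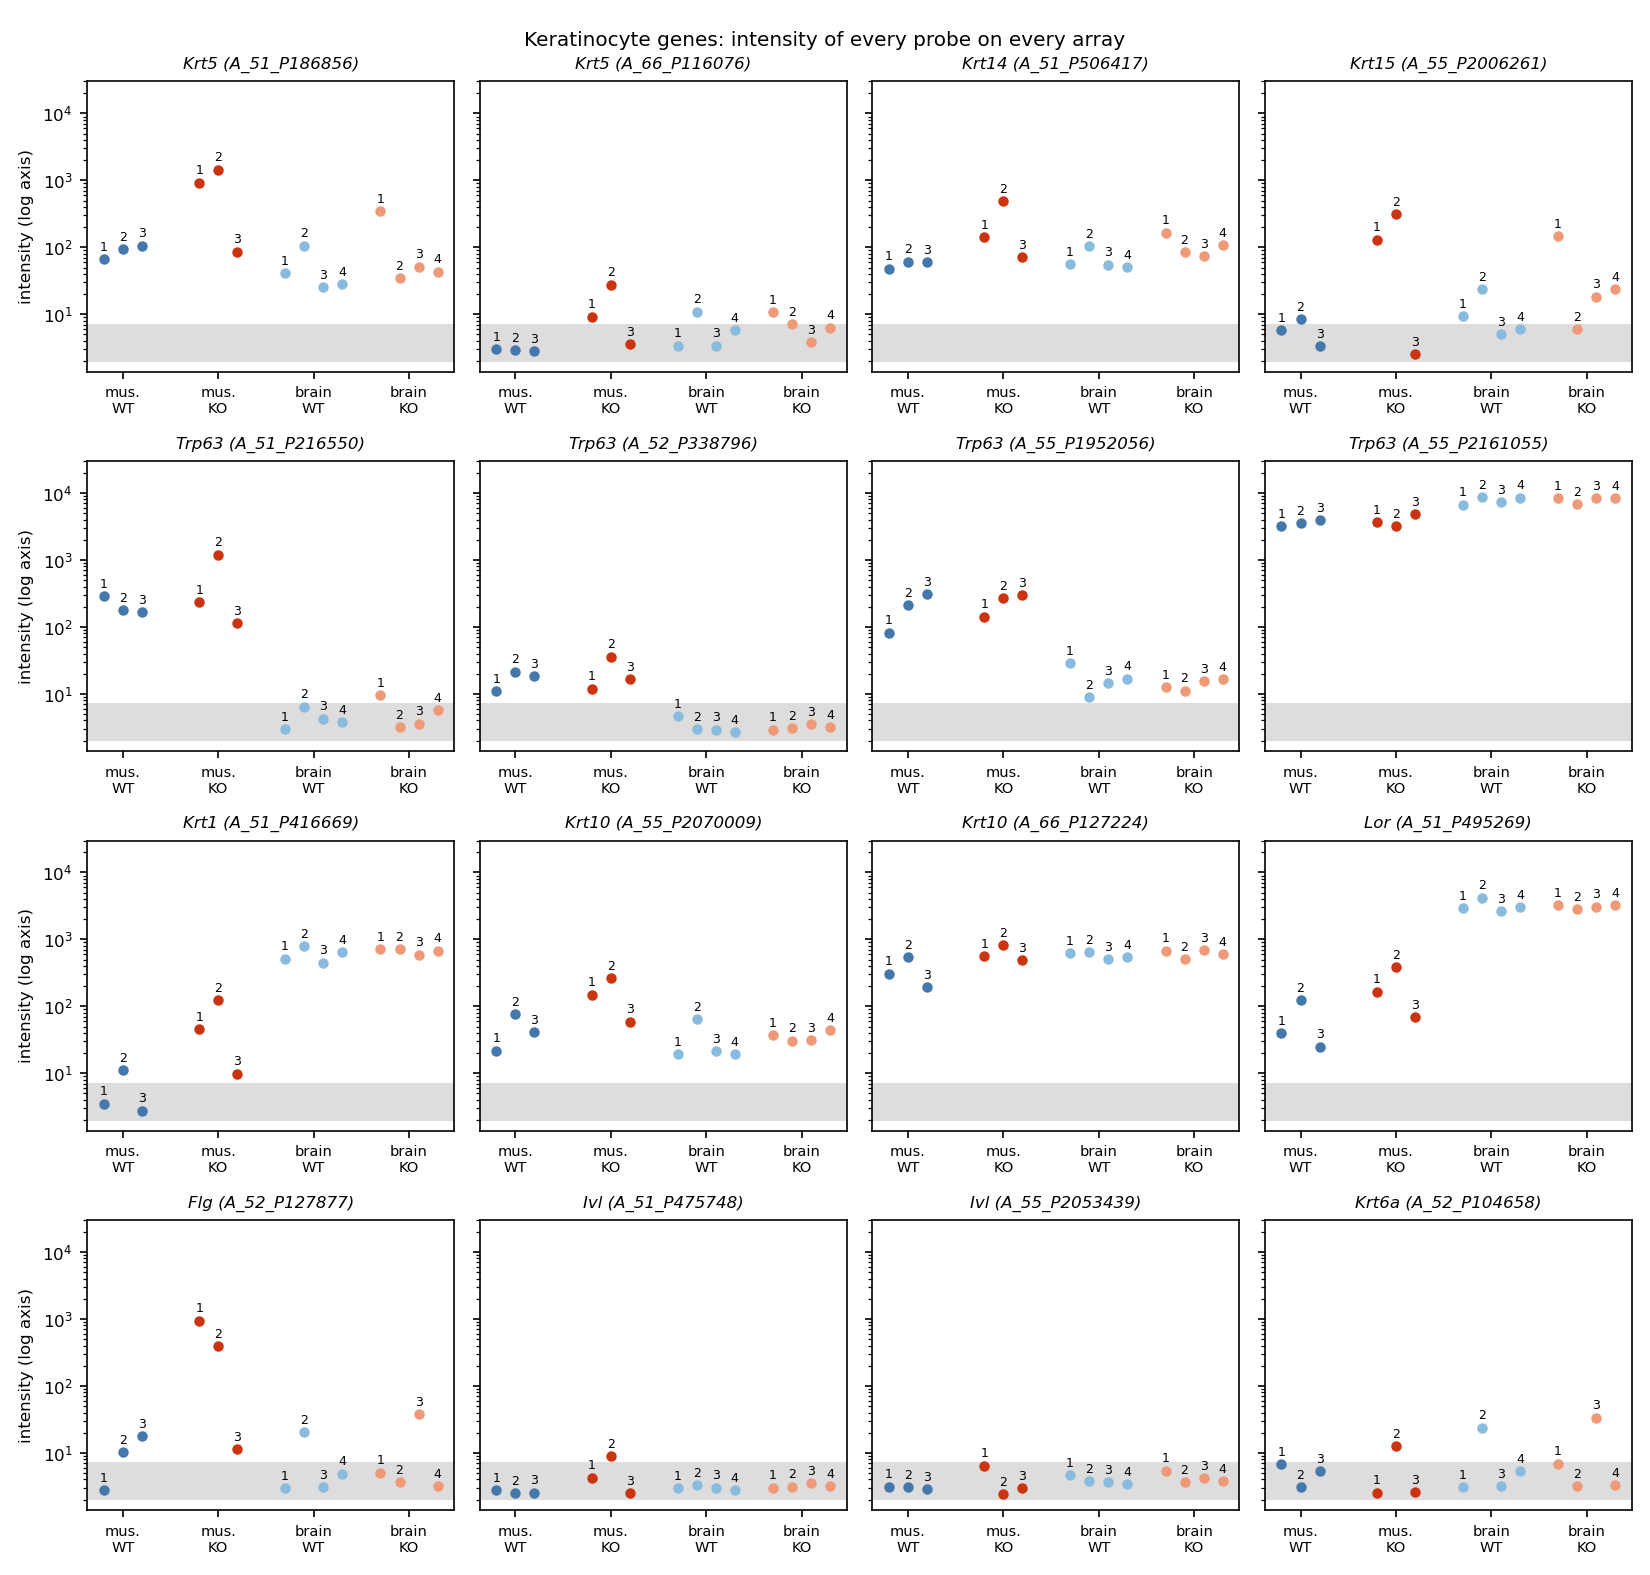
Deposited intensity (log axis) of the 16 probes of the 10 genes on each of the 14 arrays, 1 point per array, grouped by tissue and genotype; the grey band spans 2.04, the lowest value of any array, to 7.02, which is 2 times the highest of the array minima. Krt5, Krt14 and Krt15 are highest on KO muscle array 2, Krt1 and Lor are brighter in brain than in muscle, and both Ivl probes lie mostly in the band.

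The suprabasal keratins were also highest on KO muscle array 2. Krt1, the type II keratin of suprabasal cells, read 3.52, 11.1 and 2.78 on the WT muscle arrays and 45.4, 125 and 9.86 on the KO arrays. KO array 3 lay within the WT range. Krt10, the partner of Krt1, had probes of unlike brightness. Probe A_55_P2070009 read 21.9, 75.8 and 41.2 on the WT and 150, 262 and 59 on the KO arrays. The brighter probe A_66_P127224 read 307, 541 and 195 on the WT and 563, 827 and 492 on the KO arrays, a narrower spread with the same top array. The Krt10 probes correlated at r = 0.76 over the 6 muscle arrays.

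Among the envelope genes, Lor, which encodes loricrin, the main envelope protein, read 39.4, 123 and 25.1 on the WT muscle arrays and 166, 385 and 69.1 on the KO arrays. KO arrays 1 and 2 exceeded every WT array, and KO array 3 lay below WT array 2. Flg encodes filaggrin, which bundles keratin filaments in the granular layer. It read 2.79, 10.3 and 17.8 on the WT and 940, 388 and 11.4 on the KO arrays. Flg was highest on KO array 1, unlike the keratins. Ivl encodes involucrin, an envelope precursor, and each of its 2 probes was near the floor on 5 of the 6 muscle arrays and on all 8 brain arrays. Its highest muscle reading was 8.88, on KO array 2. Krt6a, a keratin of hair follicle and wounded epidermis, read 2.55 to 12.6 over the 6 muscle arrays. WT array 2 and KO arrays 1 and 3 were near the floor. Of the 10 genes, 8 read above the near-floor range on both KO arrays 1 and 2. Ivl and Krt6a read at most 12.6 on any muscle array. Variation between the KO muscle arrays picked the genes, so these readings do not test the name keratinocyte genes. Krt1, Lor and the brightest Trp63 probe read higher on every brain array than on any muscle array.

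As group means, the KO minus WT difference in muscle (log2, ± SE, n = 3 per genotype) was 2.32 ± 0.99 for Krt5, 2.93 ± 1.67 for Krt15 and 1.44 ± 0.63 for Krt14. It was -0.05 ± 0.28 for the brightest Trp63 probe. Differences were 2.84 ± 0.92 for Krt1, 0.78 ± 0.37 for Krt10, 1.56 ± 0.73 for Lor and 4.16 ± 1.62 for Flg. In Krt5, Krt15, Krt1 and Flg, KO array 3 lay apart from KO arrays 1 and 2, and the errors are wide. Ivl (0.08 ± 0.45) and Krt6a (-0.30 ± 0.67) stood near 0. These sizes depend on dim readings, and with 50 added to each intensity the difference was 0.69 for Krt1, 1.27 for Krt15, 0.93 for Lor and 2.16 for Flg, and the median over the 10 genes was 0.81. The difference was above 0 in 8 of the 10 genes, beside 46.6% of all genes, and had a median of 1.50 beside -0.03 over all genes. The KO muscle arrays chose the genes, so nothing is read from their contrast with all genes. The 4 basal genes had a median of 1.88, and the 5 differentiated genes one of 1.56. Without KO array 2 the median over the 10 genes was 0.88, and without KO array 3 it was 2.13. Over all genes, limma called 0 of 21893 between KO and WT muscle (0%), with 341 at unadjusted p under 0.05. Even the targeted gene Celf1 was not called, at a difference of -2.77 with no overlap of arrays. The count of 0 is therefore not read as a lack of difference.

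KO muscle array 2 was the highest of the 6 muscle arrays for 7 of the 10 genes and 12 of the 16 probes. Over all genes that array was the highest for 14.1%, and over all named probes for 13.7%. KO array 1 was highest for Flg and Ivl (13% of all genes), and KO array 3 for the brightest Trp63 probe (18.9% of all genes). WT arrays were highest for 0 of the 10 genes and for 1 of the 16 probes, Trp63 A_55_P1952056. Variation between the KO muscle arrays picked the genes, so nothing is read from these counts of highest arrays. Some of the genes ran closely together over the 6 muscle arrays, which share 1 scaling and the same high arrays, and others did not. Pearson r (n = 6) was 0.96 for Krt5 with Krt15, 0.93 for Krt5 with Krt14, 0.97 for Krt1 with Lor and 0.91 for Krt5 with Krt1. It was 0.25 for Krt5 with Krt6a. For other genes it depended on the probe. Krt5 gave -0.58 with the brightest Trp63 probe and 0.69 with Trp63 probe A_51_P216550. Krt14 gave -0.17 with the brighter Ivl probe and 0.95 with the other, and both Ivl probes were near the floor on most muscle arrays.

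WT muscle and WT brain differed in 4 of the 10 genes by limma (adjusted p under 0.05), 1 higher and 3 lower in muscle. Over all genes 54.9% passed, 29.5% higher and 25.3% lower, so the share of these genes that passed lay near that background. Krt1 read 452 to 797 in WT brain and was lower in WT muscle (log2 difference -6.73 ± 0.40, SE, n = 3 and 4, limma adjusted p = 4.81e-06). Of the 3 WT muscle arrays, 2 were near the floor for Krt1, so this size is not exact, and with 50 added to each intensity it was -3.32. Lor read 2624 to 4208 in WT brain and was 55.0-fold lower in WT muscle (-5.78 ± 0.44, limma adjusted p = 1.80e-05), or -4.73 on the log2 scale with 50 added. All WT muscle arrays lay below all WT brain arrays for 3 of the 10 genes, Krt1, Lor and Trp63, beside 26.5% of all genes, and above them for 0, beside 30.7%. The difference was above 0 in 3 of the 10, beside 52.8% of genes. For Krt1 and Lor every muscle array, KO included, lay below every brain array. KO muscle array 2, with the highest muscle readings, stood at 125 for Krt1 and 385 for Lor.

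Krt5 was 2.40-fold higher in WT muscle than in WT brain (1.26 ± 0.42, limma adjusted p = 0.0357), and the arrays overlapped. That call rested on the settings. With the array number as a block the adjusted p was 0.134, and over all alternatives it ranged from 0.00379 to 0.494. It was lost without any 1 of 6 of the 7 arrays (adjusted p = 0.0603 to 0.101) and held without WT brain array 2, where Krt5 read 106 against 25.5 to 41 on the other WT brain arrays. The second Krt5 probe gave -0.63 ± 0.34 (limma adjusted p = 0.154 over all named probes).

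Trp63 was the gene whose probes disagreed most between tissues. The brightest probe was 1.89-fold lower in WT muscle (-0.92 ± 0.17, limma adjusted p = 0.00226), with 6721 to 8585 in WT brain. Each of the other probes was higher in muscle when all named probes were tested, an analysis added after the data were seen. Probe A_51_P216550 was higher by 5.81 ± 0.31 on the log2 scale (limma adjusted p = 2.39e-06), probe A_55_P1952056 by 3.68 ± 0.57 (0.000860) and probe A_52_P338796 by 2.55 ± 0.32 (0.000248). In WT brain the first of these was near the floor on 3 of 4 arrays and the last on 4 of 4, so the sizes of these differences are not exact. WT muscle thus gave 165 to 290 with a Trp63 probe that read 2.97 to 6.45 in WT brain, on arrays where Krt15 stayed at or under 8.51. Of the 16 probes, 4 were higher and 3 lower in WT muscle, beside 28% and 26.6% of all named probes.

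The other genes did not pass between the tissues. Krt14 differed by 0.03 ± 0.22 (limma adjusted p = 0.939), Krt15 by -0.52 ± 0.50 (0.430) and Krt10 by -0.64 ± 0.30 (0.109). Krt10 passed without WT muscle array 2 (-0.92 ± 0.28, limma adjusted p = 0.0304) and with all 14 arrays in 1 model (0.0460), and its adjusted p reached 0.848 among the other settings. Krt14 read 51.1 to 104 in WT brain, so that the WT muscle readings of 48.1 to 61.2 lay at the same level as in brain. Flg differed by 0.75 ± 0.74 (0.441), Ivl by -0.13 ± 0.24 (0.692) and Krt6a by -0.10 ± 0.66 (0.930). Each of these last 3 was near the floor on several arrays, which leaves their differences without a clear size.

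**Figure D2:**
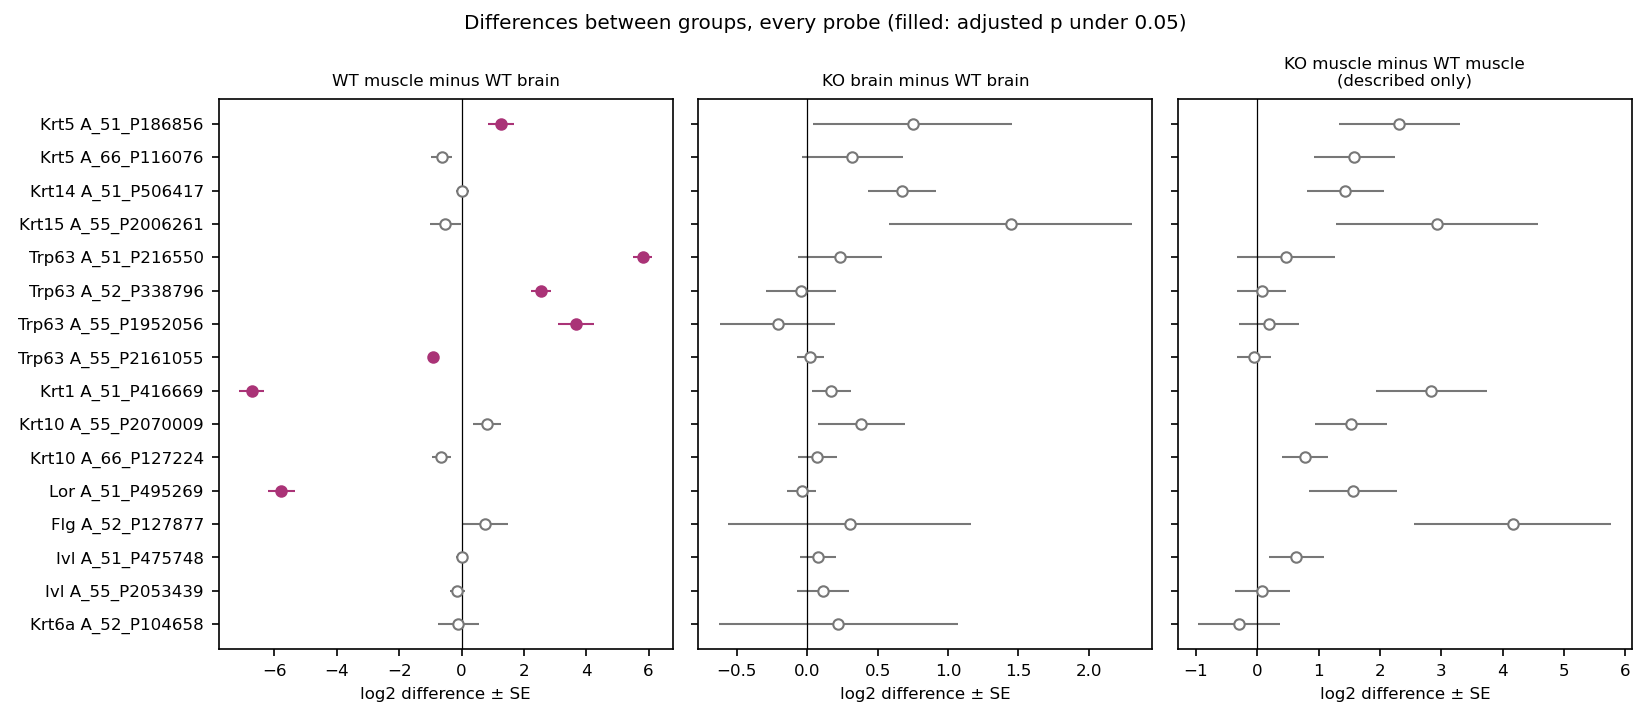
Difference in level (log2, error bars are SE) for the 16 probes in 3 comparisons, WT muscle minus WT brain, KO minus WT brain and KO minus WT muscle; each panel has its own horizontal scale, and filled points mark limma adjusted p under 0.05 where a test was made. Krt1 and Lor lie near -6.73 and -5.78 between the tissues, the Trp63 probes lie on both sides of 0, and no probe is filled between KO and WT brain.

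In brain, 0 of the 10 genes passed between KO and WT by limma, beside 5 of 21893 genes (0.0228%). At unadjusted p under 0.05 there were 1828 genes over all. The 10 genes had a median difference of 0.20, and 9 of them lay above 0, as did 52.2% of all genes. The KO and WT brain arrays overlapped in each of the 10, while over all genes 1.41% had every KO array above and 2.45% below. Differences were 1.44 ± 0.86 for Krt15 (SE, n = 4 per genotype, limma adjusted p = 0.594), 0.75 ± 0.71 for Krt5 (0.712) and 0.67 ± 0.24 for Krt14 (0.580). They were 0.17 ± 0.13 for Krt1 (0.663) and -0.04 ± 0.10 for Lor (0.877).

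The basal keratins had 1 high brain array, KO brain array 1. Krt5 read 347, 34.6, 51.5 and 43.1 on KO brain arrays 1 to 4, and 41, 106, 25.5 and 28.4 on the WT brain arrays. Krt15 read 149, 6.04, 18.3 and 24 on the KO arrays, against 9.31, 23.9, 5.1 and 6 on the WT arrays. Krt14 read 166, 84.8, 73.2 and 109 on the KO arrays, against 56.6, 104, 55 and 51.1. In all 3 genes KO brain array 1 was the highest of the 8, and WT brain array 2 was the highest of the WT arrays. Without KO brain array 1 the Krt5 difference was 0.040, and with it 0.75. Krt1 (452 to 797) and Lor (2624 to 4208) varied less than 2-fold over the 8 brain arrays and were not highest on KO brain array 1. WT brain array 2 was the highest of the WT arrays for them too.

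**Figure D3:**
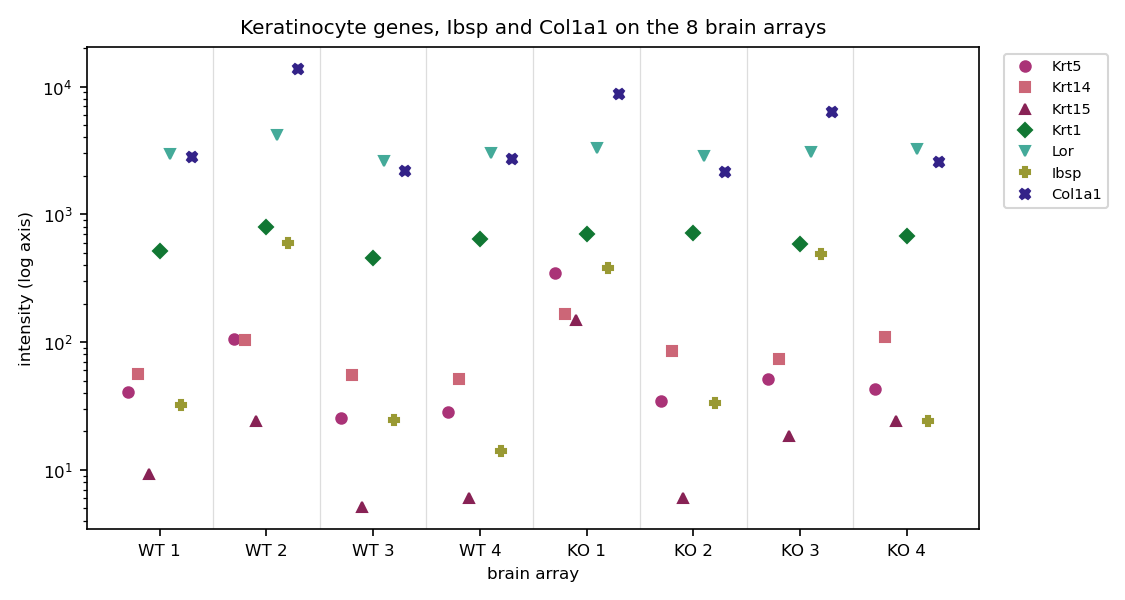
Intensity (log axis) of Krt5, Krt14, Krt15, Krt1, Lor, Ibsp and Col1a1 on each of the 8 brain arrays, 1 point per gene and array. KO array 1 is the highest of 8 for Krt5 (347), Krt15 (149) and Krt14 (166), while Krt1 and Lor are level.

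Genes of connective tissue also differed between these brain arrays. Col1a1, the fibrillar collagen of bone and skin, read 2817, 13766, 2196 and 2707 on the WT and 8786, 2163, 6322 and 2570 on the KO brain arrays. Ibsp, a bone matrix gene chosen after its values were seen, read 32.5, 599, 24.4 and 14.1 on the WT and 379, 33.4, 491 and 24.3 on the KO arrays. WT array 2 and KO arrays 1 and 3 were high in both, whereas KO array 3 was not high in Krt5. The part of these tissues in the brain readings of the keratins was not tested.

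Other genes of the epidermis were taken as lists. In muscle, a list is given by its mean level on each array, centred on the mean of the 6 muscle arrays. Krt5, Krt14 and Krt15 together stood at -1.12, -1.03 and -1.20 on the WT and 1.96, 2.93 and -1.54 on the KO arrays, and their summed intensity at 120, 165 and 170 on the WT and 1199, 2254 and 160 on the KO arrays. Krt1, Krt10 and Lor together stood at -0.96, 0.03 and -1.65 on the WT and at 1.04, 1.85 and -0.31 on the KO arrays. The mean of the basal trio on KO array 3 was carried down by Krt15, near the floor there, while Krt5 lay within the WT range and Krt14 just above it. The differentiated trio had KO array 3 within the WT range.

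The wider envelope list held genes at the floor; Sprr3 and Rptn, chosen after their values were seen, read at most 3.18 on any muscle array. Its 25 genes stood at -0.12, -0.19 and -0.26 on the WT and 0.32, 0.45 and -0.20 on the KO muscle arrays, with a median difference of 0.02. Of the 25, 9 were highest on KO array 2 and 10 on a WT array, and the difference was below 0 in 11. Of its brightest genes, Sbsn, suprabasin, read 807 to 1426 on the WT and 883 to 1446 on the KO arrays, and Tgm3, a transglutaminase that crosslinks the envelope, read 1006 to 1997 and 1279 to 1893. Krtdap, a keratinocyte differentiation peptide, read 169, 154 and 21.3 on the WT and 108, 370 and 215 on the KO arrays. Some dimmer genes had the pattern of Krt5. The next ones were chosen for it after their values were seen, so they do not stand for their lists. Dmkn is from the envelope list, Krt17 from the other epidermal keratins and Pkp1 from the desmosome list. Dmkn, dermokine, read 85.6, 43 and 28.6 on the WT and 190, 693 and 81.2 on the KO arrays. Krt17, a keratin of hair follicles and wounded skin, read 10.1, 6.12 and 8.8 on the WT and 121, 119 and 6.07 on the KO arrays. Pkp1, a desmosomal plakophilin, read 42.8, 31 and 99.8 on the WT and 194, 415 and 48.2 on the KO arrays.

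The desmosome list, whose proteins join keratinocytes, had a median difference of 0.41, and 7 of its 14 genes were highest on KO array 2. Its bright gene Perp, a desmosomal membrane protein, read 135, 544 and 756 on the WT and 724, 1174 and 454 on the KO arrays. Pkp3, another plakophilin, read 2242 to 3307 on all 6 arrays. The list of regulators stood at -0.51, -0.80 and 0.85 on the WT and 0.03, 0.69 and -0.25 on the KO arrays. Klf4, a regulator of barrier formation, read 2130, 2083 and 2123 on the WT and 1660, 5895 and 3019 on the KO arrays, with KO array 2 highest. Hopx, a homeodomain protein, read 1048, 2145 and 4938 on the WT and 1400, 1372 and 1567 on the KO arrays. By level, Hopx and Klf5 were highest on WT array 3, and 5 of the 13 regulators were highest on a WT array. The mean of the basement membrane attachment genes lay between -0.10 and 0.09 on the 6 arrays, while single members varied in different ways. Plec, plectin, read 16550 to 43141, and Itga6 and Cd151, which are also made outside the epidermis, 8669 to 12022 and 5544 to 10053. Barrier enzymes had a median difference of 0.21, with Casp14, a caspase of cornifying cells, at 98.5 to 142 on the WT and 107 to 147 on the KO arrays. Klk8 had a difference of -0.70 and read 130, 215 and 462 on the WT and 201, 220 and 95.4 on the KO arrays. Alox12b had one of 0.21, at 57.6, 64.4 and 100 on the WT and 70.7, 91.9 and 124 on the KO arrays. The other epidermal keratins had a median of -0.05, with Krt16 at 238 to 299 and 271 to 335.

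Between WT muscle and WT brain the lists passed in both directions. By limma, 7 of 25 envelope genes were higher and 5 lower in muscle, 3 and 4 of 14 desmosome genes, 3 and 3 of 13 regulators, 1 and 4 of 13 barrier enzymes, and 4 and 2 of 10 other epidermal keratins. Over all genes 29.5% were higher and 25.3% lower, and most of these shares lay near that background. Basement membrane attachment genes were higher in 7 of 10 and lower in 0. Klf4 was 5.19-fold higher in WT muscle (2.37 ± 0.19, limma adjusted p = 2.57e-05). Evpl, envoplakin, was 5.47-fold lower (-2.45 ± 0.32, limma adjusted p = 0.000351). In brain, limma called 0 genes of these lists between KO and WT.

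Markers of other tissues moved on the same muscle arrays, each in its own pattern. Skeletal muscle genes stood at -0.18, 0.36 and 0.11 on the WT and -0.09, -0.46 and 0.26 on the KO arrays, so that KO array 2, with the highest keratins, had the lowest muscle genes. Dermal fibroblast genes stood at 0.24, -0.08 and -0.20 on the WT and 0.09, 0.37 and -0.43 on the KO arrays, and 7 of 12 were highest on KO array 2. Their bright gene Col3a1 read 148216, 119575 and 124716 on the WT and 129485, 175082 and 78854 on the KO arrays. Simple epithelium genes were high on a WT array too, at -1.15, -1.02 and 1.38 on the WT and -0.30, 1.60 and -0.51 on the KO arrays. Krt18, a keratin of simple epithelium, read 397, 779 and 3600 on the WT and 834, 2928 and 1018 on the KO arrays. WT array 3 was therefore high in this keratin while its Krt5 and Krt15 stayed at 107 and 3.34.

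Cartilage and bone genes separated KO array 1 from KO array 2. They stood at -1.19, -0.76 and -0.42 on the WT and 2.05, -1.15 and 1.47 on the KO arrays, and 10 of 14 were highest on KO array 1. Alpl, alkaline phosphatase of bone, read 56.7, 61.8 and 97.4 on the WT and 628, 151 and 485 on the KO arrays. By the list mean, KO array 3, where Krt5 lay within the WT range, was high, and KO array 2 (-1.15) lay near WT array 1 (-1.19). Alpl on KO array 2 (151) nonetheless lay above each WT array. Melanocyte genes ranged from -0.39 to 0.81 and were highest on WT array 3, as were neutrophil genes at 0.73. Oral and oesophageal genes ranged from -0.53 to 0.34, and Krt13, a keratin of that epithelium, read 6.61, 15.8 and 63.2 on the WT and 31.6, 77.4 and 30.1 on the KO arrays. The part of skin, dermis or any other tissue in the keratin readings was not tested.

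**Figure D4:**
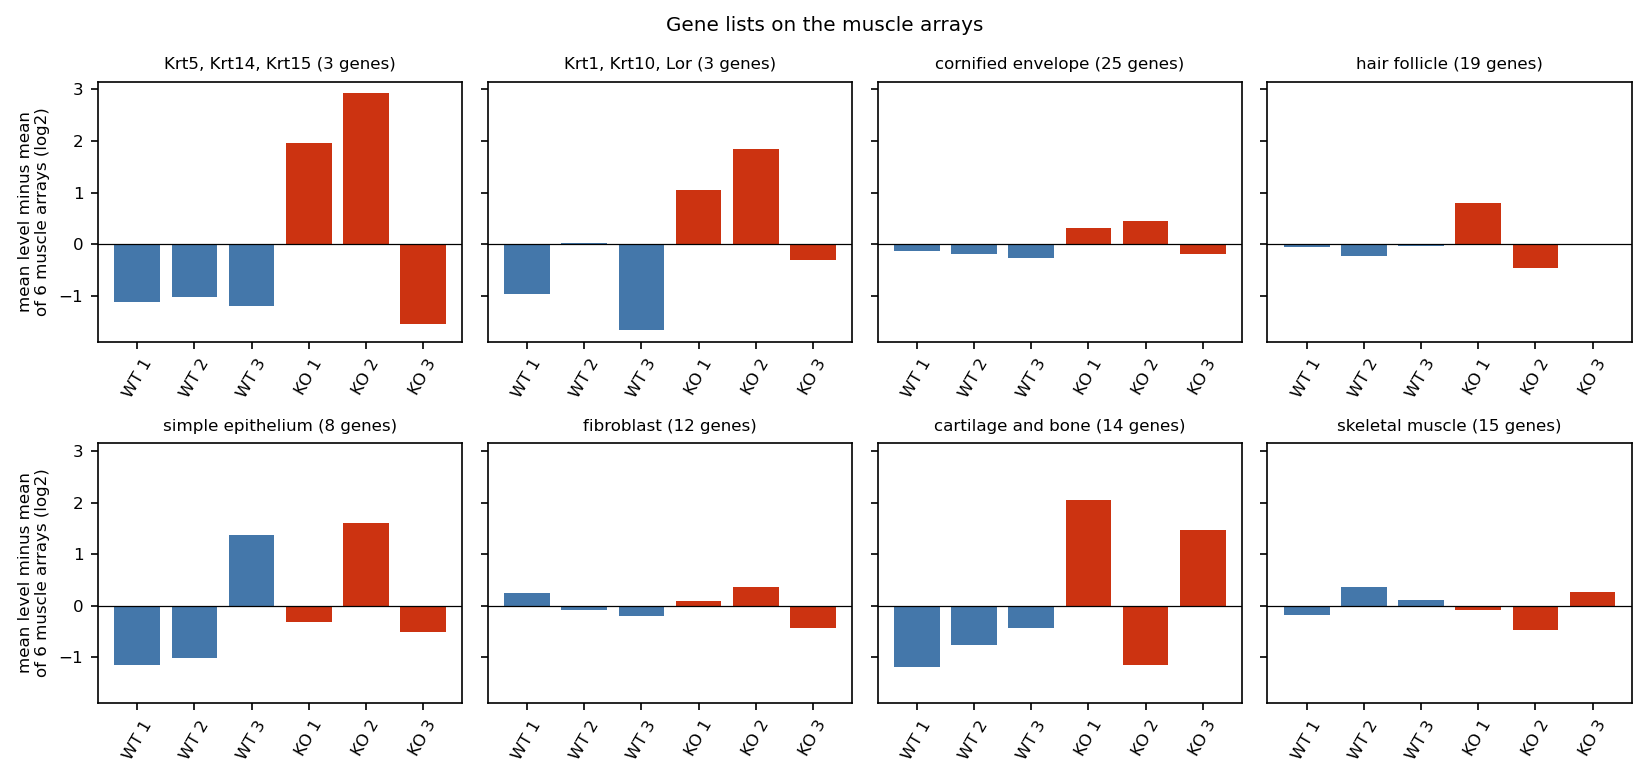
Mean level minus the mean of the 6 muscle arrays (log2) for 8 gene sets, with 1 bar per array and WT and KO arrays in separate colours. The trio Krt5, Krt14 and Krt15 reaches 1.96 and 2.93 on KO arrays 1 and 2 and stands at -1.54 on KO array 3, while cartilage and bone genes stand at 2.05, -1.15 and 1.47 on those arrays.

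Among 3653 other genes with an SD of at least 0.5 (log2) and a mean intensity of at least 50 over the muscle arrays, those most like the basal trio were named by Pearson r over the 6 arrays. Lgals7, galectin-7 of stratified epithelium, came first (r = 0.96) and read 52.6, 62.1 and 49.9 on the WT and 295, 413 and 24.4 on the KO arrays. Next came Slc15a2, a peptide transporter (0.94), Gpm6a, a neuronal membrane glycoprotein (0.94), Epx, eosinophil peroxidase (0.92), and Slit2, a secreted guidance factor (0.92). Dio3os, Zfp101 and Akr1c19 followed at 0.91, 0.90 and 0.90. For the differentiated trio, Calm4, a calmodulin-like gene of mouse epidermis, came first (0.97) and read 14.4, 27.1 and 2.8 on the WT and 75.1, 191 and 16 on the KO arrays. It was followed by Cubn (0.94), Hmcn1 (0.93), Slc15a2 (0.93), Zfp979, Chst14, Cttnbp2 and Rims3 (each 0.92). With 6 arrays, of which KO array 2 is the highest in most, such values describe likeness only.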

How the data were processed

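RNA of 14 samples (3 WT and 3 KO muscle, 4 WT and 4 KO brain) was measured on one-colour arrays, 1 per sample. The authors deposited a table of 55681 probes whose values are intensity on a linear scale; per the submitters' processing notes they come from Agilent Feature Extraction, with its version and any further step not given in the sources used here. Array 75th percentiles of 883 to 1398 differ, so no scaling between arrays was visible, and 129 cells were blank. No detection flags were used, and precision is limited by the number of arrays.

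Of these probes, 30626 carried 1 gene symbol, 0 several, and 25055 were not listed in the platform annotation, which can be old. Values were taken to log2 and the array's 75th percentile of named probes was subtracted. A gene was represented by its brightest probe on average over the 14 arrays, giving 21893 genes, 6807 with several probes. WT muscle was compared with WT brain, and KO with WT within a tissue, by limma 3.58.1 (lmFit and eBayes, 2-sided) in R 4.3.3, with the 2 groups of a comparison in the fit and no block. P-values were Benjamini-Hochberg adjusted over all genes at a threshold of 0.05. The fit was tested on simulated data. From each list, at most 3 of the genes with the highest mean muscle level were named by rule. The 10 genes with all their probes, Celf1 and the 8 genes most like each trio were named too. Predicted genes and olfactory, vomeronasal and taste receptor genes were left out of the likeness search. The genes, the 18 lists and the tests were chosen with earlier results of these data known. Alternatives were another scaling, an offset of 50, the mean of probes, bright genes only, leaving out each array, the array number as a block, all 14 arrays in 1 model and, added after the data were seen, other probes.

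The labels number the samples within each group. Deviations of same-numbered WT muscle and WT brain samples correlated at 0.11, 0.23 and 0.20 for numbers 1, 2 and 3. Same-numbered KO and WT muscle samples, which cannot share a mouse, correlated at 0.16, -0.08 and 0.20. These values therefore do not show that the numbers are paired, and the labels do not state it. The main fits used no pairing, and the array number entered as a block only as an alternative.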

Additional observations from a re-analysis of the deposited data

Results flagged for a closer look

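In 4 brain arrays of 1 genotype, a single array stood far from the other three in 5 of the 32 sets of readings examined with Dixon's 95% critical value, where chance gives about 1 in 20. KO brain array 1 was far above the other KO arrays for Krt5 (level -1.89, intensity 347), with a gap of 0.847 of the group's range. For Lor the same array had the lowest level of the 4 KO arrays (level 1.35, against 1.43 to 1.44 on the others), with a gap of 0.856 of a narrow range, although its unscaled intensity of 3284 was the highest. KO brain array 3 was the high array for Flg (level -4.93, intensity 37.5), while the other KO arrays read 3.2 to 5.07. WT brain array 2 was high for the dimmer Krt10 probe (level -4.44, intensity 64.5, against 19.1 to 21.3). WT brain array 1 was apart for the brighter Krt10 probe (level -0.67, intensity 619, against 505 to 648), on the scaled level and not on the intensity.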

How the results depend on the processing

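The comparison of KO with WT brain called 0 of the 10 genes under each of its alternatives, while its count over all genes, 5, was 3 without scaling, 3 with bright genes only, 2 with all 14 arrays in 1 model, 9 with every named probe tested on its own, and 1 to 9 with an array left out (9 without WT array 2, 3 without KO array 1 or 3, 2 without KO array 4, and 1 when KO array 2 or either of WT arrays 3 and 4 was dropped). With the replicate block limma called 0, and 1655 genes had an unadjusted p under 0.05; the same-numbered brain samples correlated at 0.04, -0.05, 0.08 and 0.10. Between WT muscle and WT brain the count over all genes was 7690, and 2 of the 10 genes, with bright genes only, where fewer genes are tested; with an array left out it was 10891 to 12209, and 3 to 4 of the 10. With the replicate block, which leaves WT brain array 4 without a partner, the call of Krt5 was lost, and no other call among the 10 genes changed. The KO minus WT difference in muscle ranged over left-out arrays from 0.88 to 2.13 (median of 10), 1.17 to 2.82 (basal) and 1.01 to 2.19 (differentiated), and with the offset these were 0.81, 1.12 and 0.69; with bright genes only the basal value was -0.052, from Trp63 alone. Differences that turned sign between WT muscle and WT brain were Krt14 (-0.18 without scaling, -0.086 with the replicate block, -0.086 to 0.17 with an array left out), Krt6a (0.12 with quantile normalization, 0.12 with the offset, -0.43 to 0.48 with an array left out), Krt15 (0.082 with the offset), Ivl (0.18 with the offset, -0.25 to 0.031 with an array left out), Krt10 (0.091 with the mean of probes, 0.83 with its other probe) and Trp63 (2.78 with the mean of probes, limma adjusted p = 1.85e-05, and 5.81 with its other probe, where its adjusted p ranged from 2.52e-06 to 0.0157 over the alternatives). In brain, KO minus WT turned for Trp63 (-0.010 with quantile normalization, -0.00010 with the mean of probes, -0.020 to 0.060 with an array left out), Ivl (-0.0080 with the offset), Lor (-0.10 to 0.0060), Flg (-0.53 to 0.83) and Krt6a (-0.54 to 0.79), the last 3 with an array left out. Between the tissues, the turns of Trp63 and Krt10 came with the choice of probe; for the other turns the cause was not tested. The tests of Krt1 and Lor between the tissues kept their direction and their side of the threshold under each alternative that gave them a value, but with the offset Krt1 shrank from -6.73 to -3.32 and Lor from -5.78 to -4.73. Readings near the floor limit Ivl, Krt6a, Flg, Krt15, the dimmer Krt5 probe, some Trp63 probes in brain and, in WT muscle, Krt1.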

Other observations

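Hair follicle genes, whose products build the hair shaft and its inner sheath, were highest on KO muscle array 1 for 9 of 19 genes, not on the array with the highest basal keratins. Their mean centred level was -0.05, -0.23 and -0.04 on the WT and 0.81, -0.47 and -0.02 on the KO muscle arrays. The bright genes of the list were level across the arrays: Dlx3, a homeobox regulator of hair and teeth, read 2690 to 3984 and Krt73, an inner root sheath keratin, 331 to 440. Dimmer genes, chosen after their values were seen, carried the difference. Krt71, another inner root sheath keratin, read 4.27, 8.45 and 11.6 on the WT and 56.1, 6.5 and 10.3 on the KO arrays. Foxn1, a regulator of hair formation, read 29.2 on KO array 1 and 2.59 to 3.1 on the other 5. Hrnr, hornerin, a relative of filaggrin, belongs to the envelope list and was also chosen after its values were seen. It read 44.5 and 10.8 on KO arrays 1 and 2 and 2.69 to 2.93 on the other 4. KO array 1 was also where Flg was highest, at 940.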
